A study of Mus musculus with 16 samples.

Results

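The complement system is a cascade of plasma and tissue proteins that tags material for removal by phagocytes and recruits inflammatory cells. In the classical pathway C1q binds immune complexes, apoptotic cells or exposed ligands and activates the proteases C1r and C1s, which cleave C4 and C2 to form an enzyme that cleaves C3, while in the alternative pathway factor B joins deposited C3 fragments and amplifies the same step. Circulating complement comes largely from the liver, but tissue macrophages are the main source of C1q, and fibroblasts, mesothelial cells and endothelial cells can make C1r, C1s, C3, C4 and factor B. The genes described here are 9 listed complement genes of the mouse, C1qa, C1qb, C1qc, C1ra, C1s1, C3, C4b, Cfb and Serping1, chosen by symbol and matched to the Ensembl identifiers of the deposited table, which holds 51912 genes. All 9 were found, and all 9 were among the 20159 genes tested, those whose counts summed to 10 or more within every group.

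The study asked how loss of Lrrc10, which encodes a leucine-rich repeat protein of cardiomyocytes, alters the regenerative response of the neonatal heart. Ventricles of WT mice and of Lrrc10-/- mice, a whole-body knockout (KO), were taken at 7 days after surgery on postnatal day 1. The surgery was either a sham operation (SH), in which the chest was opened without ligation, or myocardial infarction (MI) by ligation of the left anterior descending artery, and the whole ventricles were used, so that tissue above and below the ligature was mixed. Each of the 4 groups (WT SH and WT MI, KO SH and KO MI) had 4 RNA libraries, numbered 1 to 4 except that KO MI held replicates 1, 2, 3 and 7.

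Totals ran from 33783874 to 57470159 expected counts per library, so that 3 counts correspond to 0.0577 to 0.0858 CPM (counts scaled to a common, TMM-normalised library size). Lrrc10 had 0 counts in all 8 KO libraries and 1075 to 1850 counts in the WT libraries. Cardiomyocyte markers summed to 24196 to 37752 CPM, and markers of hepatocytes, the main complement source outside the heart, to 0.385 to 3.96 CPM. The paper describes the sequenced groups as balanced for sex, and sex is not given for each library. Xist, which is transcribed from the inactive X chromosome in females, was at 919 to 984 CPM in 6 libraries (KO SH replicates 1 and 2, WT MI replicates 2 and 4, KO MI replicates 1 and 2) and at or below 23.4 CPM in the other 10, which include all 4 WT SH libraries. Results that changed with Xist as a covariate are given with that value.

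In GRCm39 the 9 genes lie on 4 chromosomes (GENCODE M39 annotation). C1qa, C1qc and C1qb lie side by side on the minus strand of chromosome 4, between 136606009 and 136626161, with gaps of 2846 and 2954 bases. C1ra and C1s1 are neighbours on opposite strands of chromosome 6, 6894 bases apart. C4b (34947354 to 34962912) and Cfb (35074852 to 35081559) lie in the major histocompatibility region of chromosome 17, with C2 18 bases from Cfb, and C3 lies farther along the same chromosome (57510964 to 57535155). Serping1 is alone on chromosome 2.

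The 250 bases upstream of the annotated start are shown for C4b and C3, which had the steepest rises after infarction, and for C1qa, which had another pattern. Sequences are read 5' to 3' on the gene's strand from the GRCm39 reference. Capitals mark matches to 3 motifs searched on both strands, the interferon-stimulated response element core GAAANNGAA, the gamma-activated site TTCNNNGAA and the NF-kB consensus.
C4b (chr17:34962913-34963162, minus strand): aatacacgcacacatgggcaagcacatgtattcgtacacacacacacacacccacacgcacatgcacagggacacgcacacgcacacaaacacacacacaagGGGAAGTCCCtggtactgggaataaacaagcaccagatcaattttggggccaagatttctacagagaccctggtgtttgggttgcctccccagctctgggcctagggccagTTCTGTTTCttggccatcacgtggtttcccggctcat
C3 (chr17:57535156-57535405, minus strand): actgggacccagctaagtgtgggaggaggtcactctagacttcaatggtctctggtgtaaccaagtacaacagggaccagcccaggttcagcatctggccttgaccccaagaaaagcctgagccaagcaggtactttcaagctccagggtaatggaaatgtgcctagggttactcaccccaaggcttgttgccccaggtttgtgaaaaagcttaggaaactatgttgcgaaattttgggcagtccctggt
C1qa (chr4:136626162-136626411, minus strand): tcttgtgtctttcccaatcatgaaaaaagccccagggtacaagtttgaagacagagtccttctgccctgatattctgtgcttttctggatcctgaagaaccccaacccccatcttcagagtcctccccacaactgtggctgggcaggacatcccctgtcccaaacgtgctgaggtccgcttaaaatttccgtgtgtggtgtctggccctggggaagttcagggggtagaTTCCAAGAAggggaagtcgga

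In C4b the first run of capitals, GGGAAGTCCC, matched the NF-kB consensus and the second, TTCTGTTTC, matched the interferon-stimulated response element core, both on the other strand. The C1qa window held 1 match to the gamma-activated site, TTCCAAGAA, close to its start, and the C3 window held no match to any of the 3 motifs. Upstream of Cfb, where the window runs into an exon of C2 and is not printed, the NF-kB consensus matched at GGGAATCCCC and GGAATTTCCC, 159 and 66 bases before the start. Over all 21413 windows of the same length, 4.23% held the NF-kB consensus, 7.53% the interferon core and 7.76% the gamma-activated site. Of the 9 windows here, 2, 1 and 1 did. These matches describe letters, and binding was not measured.

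After infarction the RNA of C4b, C3, Cfb and C1ra rose in both genotypes, in WT MI against WT SH and in KO MI against KO SH. In KO hearts C1s1 and the 3 C1q genes rose as well, from sham levels that for C1qa and C1qb were below those of WT SH. C1s1 was also higher in every WT MI library than in any WT SH library, by 0.84 ± 0.30 on the log2 scale, but did not meet the rule given next. A gene was called at an adjusted p under 0.1 (quasi-likelihood F-test of edgeR, Benjamini-Hochberg adjustment over all genes tested) and a log2 fold change of 0.5 or more in either direction. By this rule 4 of the 9 genes were called in WT MI against WT SH, all higher, where 2.77% of all genes tested were called. In KO MI against KO SH 8 of the 9 were called, all higher, against 7.41% of all genes. The difference between the genotypes in the response to infarction was called for none of the 9, against 0.0248% of all genes. In KO SH against WT SH 3 were called, C1qa and C1qb lower and C3 higher, against 5.01% of all genes, and in KO MI against WT MI none was, against 1.73%. These comparisons share groups pairwise and are not independent of each other.

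**Figure D1:**
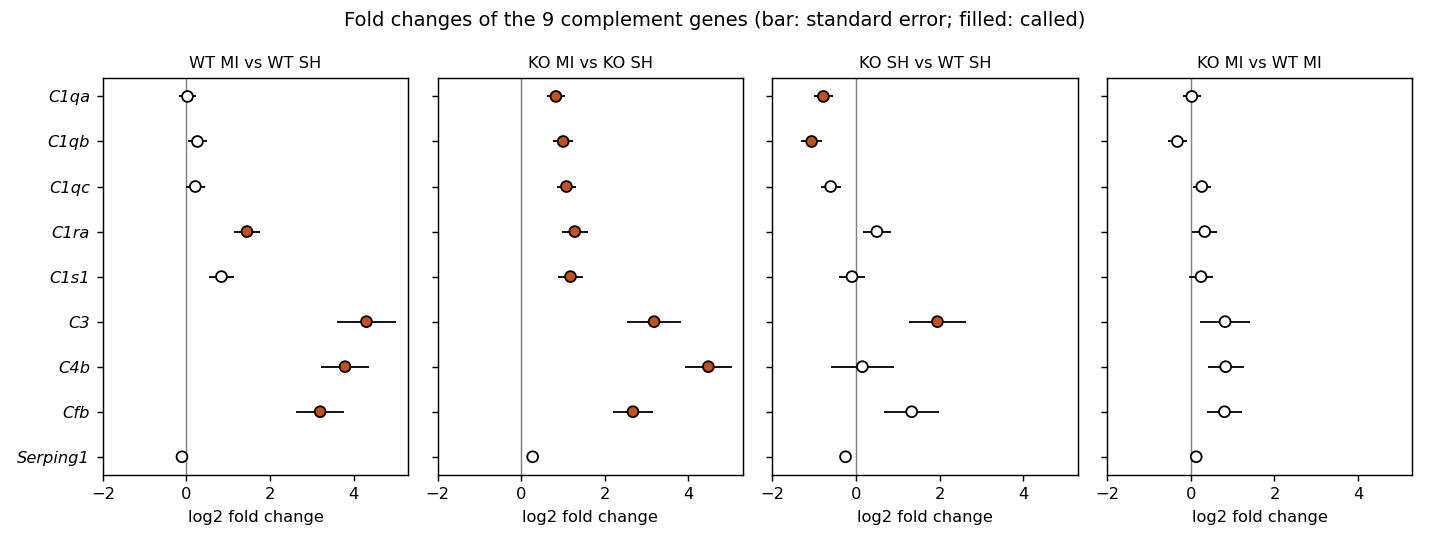
Log2 fold change (x axis) of each of the 9 genes (y axis) in the 4 comparisons, with bars of 1 standard error and filled points for called genes. Filled points lie right of 0 for 4 genes in WT hearts and 8 in KO hearts after infarction, C1qa and C1qb lie left of 0 in KO SH against WT SH, and no point is filled in KO MI against WT MI.

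C1qa, C1qb and C1qc encode the 3 chains of C1q, the recognition molecule of the classical pathway. C1qa was at 2.65, 2.67, 2.37 and 2.2 CPM in WT SH, at 1.24, 1.43, 1.67 and 1.42 in KO SH, at 2.48, 2.90, 1.93 and 2.76 in WT MI and at 1.5, 2.62, 3.89 and 2.19 in KO MI. C1qb was at 2.67, 2.19, 1.74 and 1.21 CPM in WT SH, at 0.947, 0.891, 1.04 and 0.865 in KO SH, at 2.16, 2.69, 2.34 and 2.24 in WT MI and at 1.32, 1.75, 2.83 and 1.60 in KO MI. C1qc was at 2.27, 2.75, 1.72 and 1.91 CPM in WT SH, at 1.58, 1.21, 1.61 and 1.26 in KO SH, at 2.02, 3.21, 2.23 and 2.58 in WT MI and at 1.95, 2.87, 4.60 and 2.57 in KO MI. For each chain all 4 KO SH libraries lay below all 4 WT SH libraries, and the WT MI libraries overlapped WT SH. The share of all tested genes whose libraries separate in this way was not counted, here or for the genes below. KO MI overlapped WT MI for each chain, and lay wholly above KO SH for C1qb and C1qc but not for C1qa, where replicate 1 fell among the KO SH values.

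Against WT SH, KO SH was lower by a log2 fold change of −0.78 ± 0.22 (SE, n = 4 per group) for C1qa (edgeR adjusted p = 0.0419) and −1.06 ± 0.24 for C1qb (edgeR adjusted p = 0.0145). C1qc, at −0.61 ± 0.24, was not called (edgeR adjusted p = 0.136), although DESeq2 called it. An exact permutation test of the log2 levels (two-sided, 4 against 4) gave p = 0.0286, the smallest this design allows, for each chain, among 36 such tests over the 9 genes and 4 comparisons. The C1qa call was lost with Xist as a covariate (log2 fold change −0.72, adjusted p = 0.101) and without WT SH replicate 1 (adjusted p = 0.111) or KO SH replicate 1 (adjusted p = 0.116).

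In KO MI against KO SH the chains rose together, by log2 fold changes of 0.83 ± 0.22 for C1qa (edgeR adjusted p = 0.0226), 1.0 ± 0.24 for C1qb (0.0140) and 1.08 ± 0.23 for C1qc (0.00756). The same comparison in WT hearts gave 0.03 ± 0.21, 0.26 ± 0.23 and 0.21 ± 0.23, none called. For KO MI against KO SH the exact permutation test gave p = 0.0571 for C1qa and 0.0286 for each of C1qb and C1qc. The difference between the genotypes in the response to infarction was tested as an interaction, which called none of the 9 genes and 0.0248% of all genes. It was 0.80 ± 0.31 for C1qa, 0.74 ± 0.33 for C1qb and 0.87 ± 0.33 for C1qc on the log2 scale, with unadjusted edgeR p-values of 0.0179, 0.0389 and 0.0159 and adjusted p-values of 0.268, 0.337 and 0.260. Serping1 was the other of the 4 genes with an unadjusted p under 0.05, and DESeq2 called none of the 9 either. A difference between the genotypes in the response of C1q was thus not called.

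**Figure D2:**
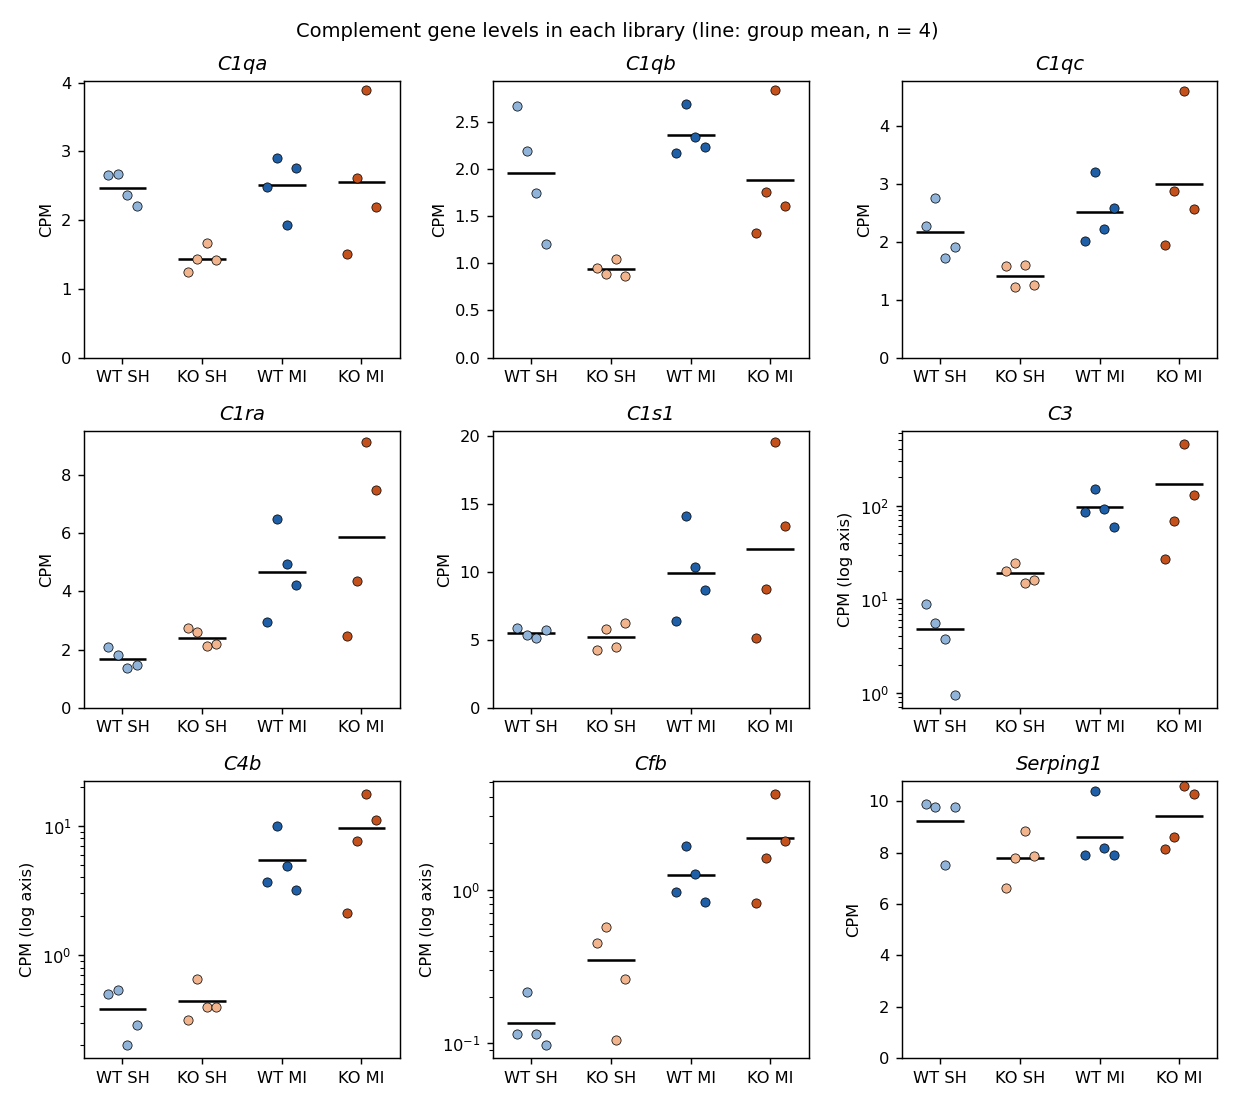
CPM of each of the 9 genes in each library (points) with group means (lines, n = 4), on linear axes except for C3, C4b and Cfb, whose axes are logarithmic. The C1q panels show KO SH as the lowest group, and in the C3, C4b and Cfb panels every MI library lies above every SH library.

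C1ra and C1s1 encode the 2 serine proteases that C1q activates in turn, C1r first and then C1s. C1ra was at 2.09, 1.82, 1.37 and 1.47 CPM in WT SH, at 2.75, 2.59, 2.11 and 2.18 in KO SH, at 2.96, 6.50, 4.92 and 4.21 in WT MI and at 2.48, 4.35, 9.11 and 7.49 in KO MI. C1s1 was at 5.86, 5.37, 5.17 and 5.73 CPM in WT SH, at 4.26, 5.83, 4.48 and 6.24 in KO SH, at 6.39, 14.1, 10.4 and 8.71 in WT MI and at 5.12, 8.78, 19.6 and 13.4 in KO MI. Every WT MI library exceeded every WT SH library for both genes, whereas KO MI replicate 1 fell among the KO SH values for both. C1ra rose by 1.45 ± 0.32 on the log2 scale in WT hearts (edgeR adjusted p = 0.0210) and by 1.28 ± 0.31 in KO hearts (edgeR adjusted p = 0.0132). C1s1 rose by 1.18 ± 0.30 in KO hearts (edgeR adjusted p = 0.0180), and its 0.84 ± 0.30 in WT hearts was not called (edgeR adjusted p = 0.152), though it was with no filter on low counts (0.0879), with the WT groups alone in the fit (0.0266), without KO MI replicate 1 (0.0557) and without KO MI replicate 3 (0.0801). The exact permutation test gave p = 0.0857 for both genes in KO MI against KO SH and 0.0286 for both in WT MI against WT SH.

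In the sham groups neither protease was called. All 4 KO SH libraries lay above all 4 WT SH libraries for C1ra, with a log2 difference of 0.50 ± 0.33 (edgeR adjusted p = 0.397), and the difference for C1s1 was −0.10 ± 0.31. Per kilobase of canonical transcript, the ratio of C1ra to C1s1 was 0.298 ± 0.0496 (SD, n = 4) in WT SH, 0.467 ± 0.121 in KO SH, 0.460 ± 0.0106 in WT MI and 0.490 ± 0.0394 in KO MI. WT SH, at up to 0.350, overlapped KO SH, which began at 0.341, and lay below both MI groups. These genes have close copies whose reads can be shared. The canonical transcripts of C1ra and C1rb were 98.1% identical over the aligned part and those of C1s1 and C1s2 96.1%, and at most 14 counts of C1rb and 10 of C1s2 were assigned to any library.

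Serping1 encodes the C1 inhibitor, which inactivates C1r and C1s and also restrains the contact system. Its level was 9.90, 9.78, 7.52 and 9.79 CPM in WT SH, 6.63, 7.77, 8.84 and 7.87 in KO SH, 7.92, 10.4, 8.18 and 7.90 in WT MI and 8.13, 8.62, 10.6 and 10.3 in KO MI. The ranges of all 4 groups overlapped, with KO SH replicate 1 the lowest library. Serping1 was called in no comparison, with log2 differences of −0.25 ± 0.12 in KO SH against WT SH (edgeR adjusted p = 0.224), −0.11 ± 0.12 in WT MI against WT SH and 0.27 ± 0.12 in KO MI against KO SH (edgeR adjusted p = 0.155). None of its 4 log2 differences reached the minimum of 0.5 in size.

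C4b encodes complement C4, the first substrate of C1s. It was at 0.50, 0.534, 0.20 and 0.290 CPM in WT SH, at 0.316, 0.648, 0.396 and 0.393 in KO SH, at 3.70, 9.92, 4.88 and 3.21 in WT MI and at 2.11, 7.69, 17.7 and 11.2 in KO MI. Both sham groups were near the bottom of the measurable range, with 7 to 26 counts a library, and every MI library stood above every SH library. C4b rose 13.9-fold in WT hearts (log2 fold change 3.79 ± 0.58, edgeR adjusted p = 0.00205) and 22.2-fold in KO hearts (4.48 ± 0.57, edgeR adjusted p = 0.000519). In the sham groups the genotypes differed by 0.15 ± 0.76. The neighbouring copy C4a, with a transcript 96.2% identical to that of C4b, stayed at or below 0.374 CPM in every library, and 8.17% of 150-base windows of the C4b transcript also occur in that of C4a.

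C3 encodes the central protein of the cascade, on which the classical, lectin and alternative pathways converge. It was at 8.99, 5.53, 3.72 and 0.943 CPM in WT SH, at 20.1, 24.4, 14.9 and 16.1 in KO SH, at 85.9, 150.4, 92.3 and 58.5 in WT MI and at 26.6, 68.7, 457.7 and 129.2 in KO MI. The sham groups did not overlap, KO SH being higher, and every MI library lay above both. For C3, KO MI replicates 1 and 3 differed by more than any other pair of libraries of the same group. C3 rose 19.8-fold in WT hearts (log2 fold change 4.31 ± 0.71, edgeR adjusted p = 0.00349) and 9.04-fold in KO hearts (3.18 ± 0.65, edgeR adjusted p = 0.00561), the latter falling to a log2 fold change of 1.98 without KO MI replicate 3 (edgeR adjusted p = 0.0224).

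In KO SH C3 was 3.85-fold higher than in WT SH (log2 fold change 1.95 ± 0.69, edgeR adjusted p = 0.0931). This call lay close to the threshold and was lost with the robust fit (adjusted p = 0.187) and in 10 of the 16 fits that each left out 1 library, with log2 fold changes from 1.61 to 2.04 there. The difference in the response to infarction between the genotypes was −1.13 ± 0.90 for C3 (edgeR adjusted p = 0.616).

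Cfb encodes factor B, the protease of the alternative-pathway C3 convertase. It was at 0.115, 0.214, 0.114 and 0.0967 CPM in WT SH, at 0.451, 0.567, 0.104 and 0.262 in KO SH, at 0.967, 1.94, 1.26 and 0.825 in WT MI and at 0.813, 1.59, 4.2 and 2.09 in KO MI. WT SH rested on 4 to 8 counts a library, and every MI library was above every SH library. Cfb rose 9.18-fold in WT hearts (log2 fold change 3.20 ± 0.57, edgeR adjusted p = 0.00578) and 6.37-fold in KO hearts (2.67 ± 0.48, edgeR adjusted p = 0.00267). Its difference of 1.33 ± 0.66 between the sham groups was not called (edgeR adjusted p = 0.236), and KO SH replicate 3 lay among the WT SH values. A gene model that overlaps Cfb and C2 on the same strand, Gm20547, was assigned 0 to 9 counts a library in WT SH and 0 to 7 in WT MI. Its group means were 0.0432 and 0.0380 CPM. Every KO library had 0 counts, as did some WT libraries in both groups, so these counts do not separate the genotypes. Reads shared by these models cannot be assigned to one of them with certainty.

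Between the infarcted groups none of the 9 genes was called, none had an unadjusted p under 0.05 in edgeR, and DESeq2 called none. The log2 differences of KO MI from WT MI were 0.83 ± 0.43 for C4b, 0.82 ± 0.59 for C3 and 0.80 ± 0.41 for Cfb (edgeR adjusted p-values of 0.461, 0.654 and 0.457), and −0.32 ± 0.22 for C1qb. KO MI replicate 3 had the highest level and KO MI replicate 1 the lowest of that group for all 9 genes, and WT MI replicate 2 was the highest of its group for all 9. Without KO MI replicate 3 the C3 difference was −0.38, and without KO MI replicate 1 C4b was called in this comparison, at 1.17. The size of the infarct in each heart was not given in the sources used here.

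Per kilobase of canonical transcript, the order of the levels changed with infarction. In WT SH Serping1 was highest at 5.04 ± 0.629 CPM per kb (SD, n = 4), followed by C1qa at 2.28 and C1s1 at 1.90, none of these overlapping the next in order. C4b, at 0.0701, and Cfb, at 0.0404, were lowest and overlapped each other. In KO SH C3 stood second, at 3.66 ± 0.837, and overlapped Serping1. C3 was first in both infarcted groups, at 18.8 ± 7.49 in WT MI, where it overlapped no other gene, and at 33.1 ± 38.0 in KO MI, where its lowest library overlapped Serping1. C4b reached 0.999 in WT MI, within the range of C1qb, and 1.78 in KO MI, within that of C1qc, and Cfb was last in both infarcted groups.

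Across the 16 libraries the genes formed partly overlapping sets by their log2 levels, given as a description, since libraries share groups and depth. Pearson's r among C1qa, C1qb and C1qc was 0.83 to 0.88, and among C1ra, C3, C4b and Cfb 0.90 to 0.94. Between these sets r ran from 0.32 for C3 and C1qa to 0.75 for C4b and C1qc. C1s1 had 0.91 with C1ra and 0.60 to 0.77 with the C1q chains, and C3 and Serping1 had 0.17. Within C1q, per kilobase, C1qa gave 54.4% ± 3.46 (SD, n = 4) in WT SH, 53.9% ± 3.88 in KO SH, 50.3% ± 3.82 in WT MI and 49.6% ± 2.08 in KO MI. Among 14091 other genes with a mean of at least 1 CPM, those most like the C1q mean were Arpc1b (r = 0.92), Cd33, Alox5ap, Cd44 and Cmklr1, and those most like C3 were Il18r1 (r = 0.97), Bnc1, Rab11fip1, Krt19 and Lrrn4. Closest to the mean of C1ra, C1s1, C4b and Serping1 were Cd84 (r = 0.97), Ccl6, Dock2, Aebp1 and Ildr2, and closest to Cfb were Emb (r = 0.94), Ncam1, Cd300lf, Cd74 and Ildr2.

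Of 47 other complement genes on the list used here, 30 could be tested. In WT MI against WT SH 5 were called higher and 1 lower, with a median log2 fold change of 0.26 over the 30 against a median of −0.0043 over all genes. In KO MI against KO SH 7 were called higher and 2 lower, in KO SH against WT SH 1 higher and in KO MI against WT MI 1 higher. None was called in the interaction. Over all genes tested 2.77% were called in WT MI against WT SH and 7.41% in KO MI against KO SH. The shares were 5.01% in KO SH against WT SH and 1.73% in KO MI against WT MI, and 1 call among 30 genes is near these. The receptor chains Itgam and Itgb2, which form complement receptor 3 on phagocytes, rose by log2 fold changes of 1.58 ± 0.39 and 1.99 ± 0.31 in WT hearts (edgeR adjusted p = 0.0354 and 0.00227) and 2.61 ± 0.40 and 1.81 ± 0.31 in KO hearts (edgeR adjusted p = 0.00101 and 0.00211). C3ar1, the receptor of the C3a fragment, rose in KO hearts by 0.89 ± 0.24 (edgeR adjusted p = 0.0233), and its 0.69 ± 0.24 in WT hearts was not called.

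Soluble regulators moved in both directions. Clu, which blocks the terminal complex, rose from 15.6 ± 2.03 to 25.2 ± 7.40 CPM in WT hearts and from 21.3 ± 1.24 to 38.5 ± 7.26 in KO hearts (SD, n = 4, edgeR adjusted p = 0.0268 and 0.00293). Clu was also the gene called higher in KO MI against WT MI, by 0.61 ± 0.16 (edgeR adjusted p = 0.0537). Cfp, which stabilises the alternative convertase, rose in KO hearts by 1.04 ± 0.23 (edgeR adjusted p = 0.00846), and its 0.44 in WT hearts was not called. Cpn2, a subunit of the carboxypeptidase that inactivates C3a and C5a, fell by 0.98 on the log2 scale in WT hearts and 0.90 in KO hearts (edgeR adjusted p = 0.0408 and 0.0330), and Vtn, a terminal-pathway inhibitor, fell by 0.65 in KO hearts (edgeR adjusted p = 0.0416). In WT hearts Vtn was also lower after infarction, at 5.79 ± 0.236 CPM in WT SH and 4.78 ± 0.412 in WT MI (SD, n = 4), but was not called. Colec12, a scavenger receptor of the collectin family, rose by 0.56 ± 0.17 in WT hearts (edgeR adjusted p = 0.0941) and 0.61 ± 0.17 in KO hearts (edgeR adjusted p = 0.0293). Cd46, a membrane cofactor that in mice is expressed mainly in testis, was higher in KO SH than in WT SH by 0.57 ± 0.09 (edgeR adjusted p = 0.00092).

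C2 and Fcna, with a mean below 1 CPM over all libraries, fell outside the naming rule and were chosen after their values were seen. C2, the partner of C4 in the classical convertase, was called in WT hearts after infarction (2.02 ± 0.52 on the log2 scale, edgeR adjusted p = 0.0443), but WT SH replicate 1 had 0 counts of C2. Gm20547, the gene model that overlaps C2, was assigned up to 9 counts in a WT SH library. The division of reads between C2 and Gm20547 was not tested, and the fold of C2 depends on it. Fcna, a lectin-pathway recognition molecule, was called in KO hearts (2.58 ± 0.59, edgeR adjusted p = 0.0103). In WT hearts its mean was 0.0842 CPM in WT SH and 0.262 in WT MI, and it was not called.

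**Figure D3:**
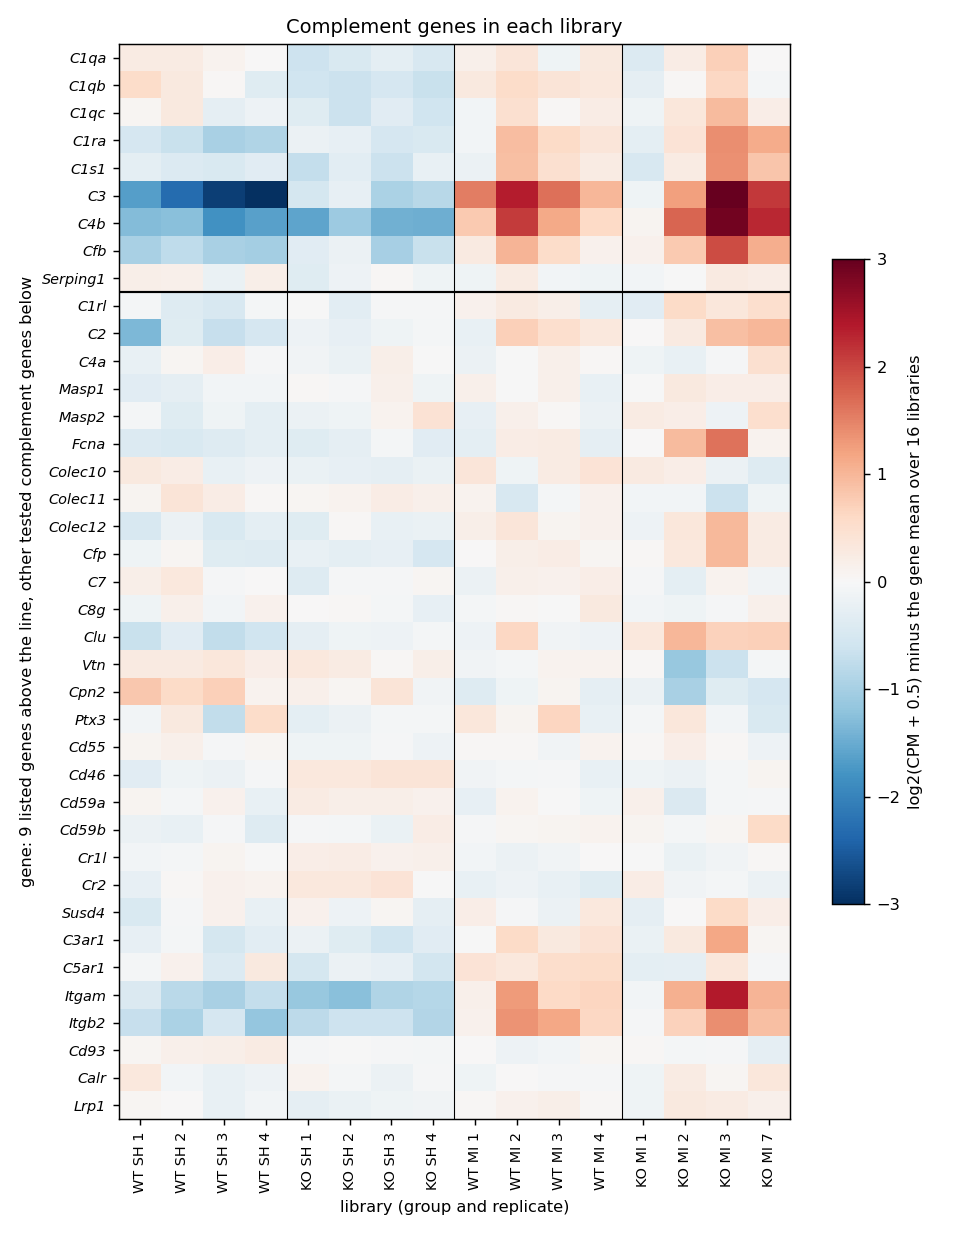
Level of the 9 genes (above the line) and of the other 30 tested complement genes (below) in each of the 16 libraries, as log2(CPM + 0.5) minus the mean of the gene, with red above and blue below the mean. C3, C4b and Cfb are blue in the SH libraries and red in most MI libraries, Itgam and Itgb2 follow them, and KO MI replicate 3 is the reddest column.

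In bulk tissue, fewer cells of a type and less RNA per cell cannot be told apart. Markers of the cells that make complement moved with several of these results. Of 14 macrophage markers, 8 were called higher in KO MI against KO SH and 1 in WT MI against WT SH. Only Fcgr1 was called lower in KO SH against WT SH. However, 3 of the 14 (Fcgr1, Adgre1 and Aif1) were lower in every KO SH library than in any WT SH library. Mertk was the 1 marker higher in every KO SH library. The sum of the 14 markers was 72.1 to 82.8 CPM in WT SH and 70.1 to 76.3 in KO SH. After infarction it was 85.0 to 101.3 in WT MI and 75.5 to 140.6 in KO MI. Mrc1 carried much of this sum, at 31.5 ± 1.70 CPM in WT SH and 26.9 ± 2.24 in KO SH. The sum of the 3 C1q genes divided by this sum was 0.0849 ± 0.0100 (SD, n = 4) in WT SH, 0.0526 ± 0.0061 in KO SH, 0.0805 ± 0.0054 in WT MI and 0.0735 ± 0.0074 in KO MI, and the KO SH libraries, at 0.0464 to 0.0608, lay below every other library. Relative to the single macrophage marker Csf1r the C1q sum was 0.663 ± 0.0905 in WT SH, 0.404 ± 0.0650 in KO SH, 0.559 ± 0.0184 in WT MI and 0.515 ± 0.0687 in KO MI, and here KO SH, at up to 0.457, lay below both WT groups but overlapped KO MI, which began at 0.435. The part of the macrophage markers in the lower C1q of KO SH, or in its rise in KO MI, was not tested.

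Krt19 and Lrrn4, among the genes closest to C3, are markers of the epicardium and mesothelium, the cell layers that cover the heart. Of 6 such markers, 4 were called higher in KO SH against WT SH, 5 in WT MI against WT SH and 3 in KO MI against KO SH. Their sum was 16.7 to 18.3 CPM in WT SH, 19.9 to 24.8 in KO SH, 28.2 to 37.1 in WT MI and 18.9 to 52.2 in KO MI. The level of C3 divided by their sum was 0.274 ± 0.196 in WT SH, 0.853 ± 0.124 in KO SH, 2.93 ± 0.908 in WT MI and 4.13 ± 3.36 in KO MI. Wt1 carried much of the sum, at 13.3 ± 1.68 CPM in WT SH and 11.3 ± 0.995 in KO SH. In an alternative chosen after seeing the data, the sum without Wt1 was 4.08 ± 1.87 CPM in WT SH, 10.7 ± 1.11 in KO SH, 16.3 ± 3.52 in WT MI and 19.5 ± 11.3 in KO MI. The level of C3 over that sum was 1.06 ± 0.403, 1.75 ± 0.257, 5.87 ± 1.58 and 7.24 ± 4.82 in the same order, and on this scale WT SH, at up to 1.51, overlapped KO SH, which began at 1.44, while both lay below all MI libraries. The part of the epicardial markers in the level of C3 was not tested.

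**Figure D4:**
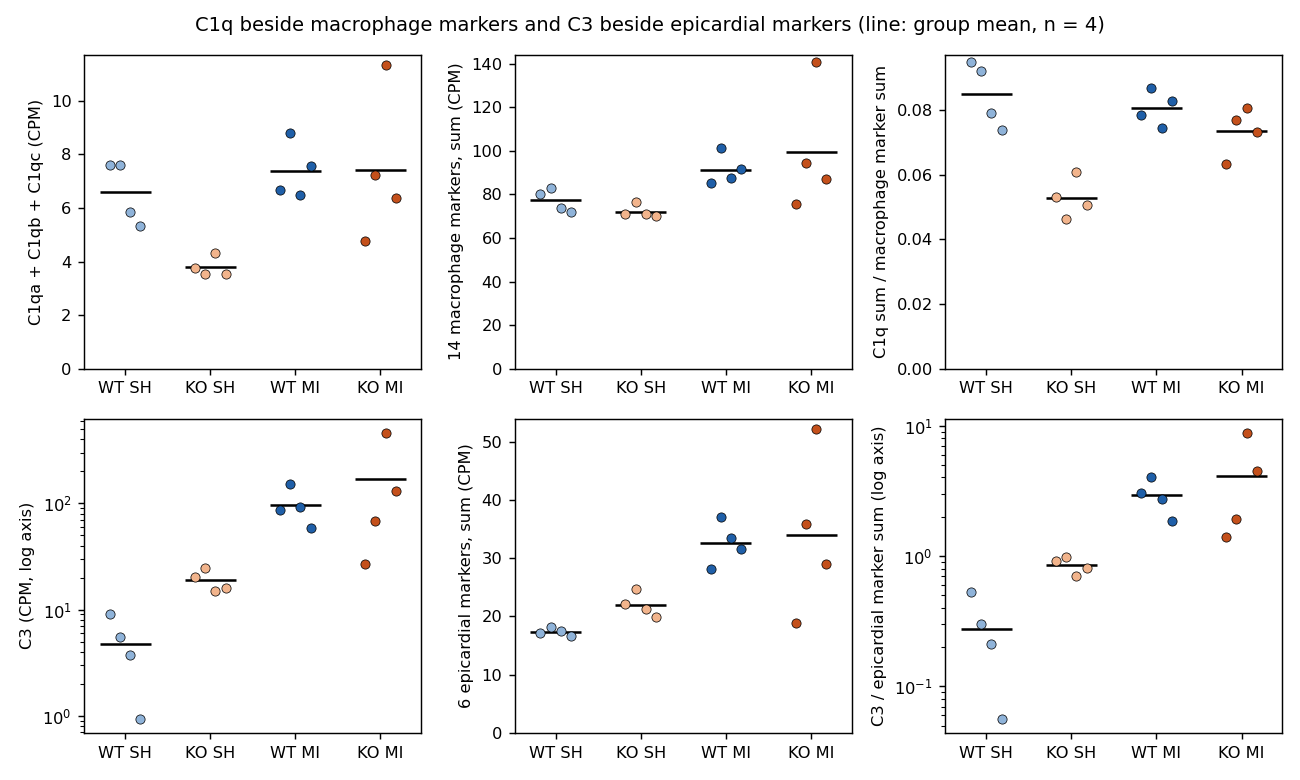
Top row, the sum of C1qa, C1qb and C1qc (CPM), the sum of 14 macrophage markers (CPM) and their ratio, and bottom row, C3 (CPM, log axis), the sum of 6 epicardial markers (CPM) and their ratio (log axis), per library (points) with group means (lines, n = 4). The C1q ratio is lowest in the 4 KO SH libraries, and the C3 ratio is lowest in the 4 WT SH libraries and highest in KO MI replicate 3.

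Other marker lists moved as well, and the marker genes named here were chosen after their values were seen. Monocyte and neutrophil markers, of which 7 of 10 were tested, were called higher for 6 in WT MI against WT SH, 5 in KO MI against KO SH and 2 (S100a8 and S100a9) in KO SH against WT SH. The sum of all 10 was 2.08 to 3.23 CPM in WT SH, 4.40 to 4.67 in KO SH, 9.12 to 25.3 in WT MI and 8.09 to 51.6 in KO MI. The highest KO MI sum, in replicate 3, included 34.5 CPM of Chil3, which was not tested. Of 10 fibroblast markers, 2 (Col1a1 and Col1a2) were called higher in KO MI against KO SH and none in WT MI against WT SH, with sums of 1781 to 2153 CPM in the SH libraries and 2136 to 2706 in the MI libraries, and 1 (Mfap5) was lower in both comparisons of KO with WT. Activated fibroblast markers were called higher for 2 of 6 in WT hearts and 5 of 6 in KO hearts after infarction, and 2 of 6 (Cthrc1 and Acta2) were lower in KO SH against WT SH. The sum of C1ra and C1s1 over the fibroblast sum was 0.00356 ± 0.000146 (SD, n = 4) in WT SH, 0.00403 ± 0.000485 in KO SH, 0.00609 ± 0.00165 in WT MI and 0.00695 ± 0.00334 in KO MI, where replicate 1, at 0.00326, lay below every KO SH library. Of 12 interferon-stimulated genes none was called in either comparison of MI with SH or between the infarcted groups, and 1, Xaf1, was higher in KO SH than in WT SH. None of 6 endothelial markers was called in any comparison. The part of these cells in the complement results was not tested.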

How the data were processed

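RNA of whole ventricles was sequenced as strand-specific total RNA libraries, and the authors deposited expected counts per gene (RSEM). The paper's methods name Skewer, STAR and RSEM, whereas the submitters' processing notes name bcl2fastq 2.17, cutadapt 3.4, HISAT2 2.2.1 and RSEM 1.1.17, and this difference was not resolved. Both give GRCm39. The annotation release is not given in the sources used here. Symbols, positions and transcript lengths came from GENCODE M39, which held 47772 of the 51912 identifiers. The mitochondrial ribosomal transcript mt-Rnr2 took 29.8% to 37.6% of the counts of a library. RSEM divides reads between close copies by estimation, so values of C4b, C1ra and C1s1 depend on that division.

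Expected counts were rounded to whole numbers and tested with edgeR 4.0.16 (R 4.3.3) by TMM normalisation and the quasi-likelihood F-test, in 1 fit of all 16 libraries with 1 coefficient per group, for genes whose counts summed to 10 or more within every group. Benjamini-Hochberg adjustment ran over the 20159 genes tested. Standard errors of log2 fold changes were derived from the quasi-likelihood F-test, as the absolute log2 fold change divided by the square root of F. The thresholds (adjusted p under 0.1, absolute log2 fold change of at least 0.5) and the count minimum follow the study's methods, which used DESeq2. DESeq2 1.42.0 was run here as an alternative. CPM are scaled to TMM library sizes, and CPM per kb divide by the canonical transcript. Exact permutation tests used log2(CPM + 0.5). Libraries were grouped by their titles, and nothing in the labels states whether each is 1 animal, so that p-values measure the spread between libraries. The edgeR script was tested on simulated counts for KO MI against WT MI, and the DESeq2 script was not tested in this way. Named genes were the 9 listed genes, other complement genes called in any comparison with a mean of at least 1 CPM, the close copies C1rb, C1s2 and C4a, and the 5 genes most correlated with each of 4 sets. The genes and lists were chosen with earlier results of these data known. Alternatives covered count model, size factors, filters, robust fit, the groups in the fit, a replicate block, an Xist covariate, thresholds and leaving out each library. A complement gene withheld from the lists is not reported here.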

Additional observations from a re-analysis of the deposited data

Results flagged for a closer look

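Each of the 9 genes was screened in each group of 4 libraries for a library that stood apart by Dixon's criterion at the 95% level, 36 screens in all, and chance alone flags about 1 in 20 groups. There were 3 such libraries. Cfb in WT SH replicate 2 was 0.214 CPM, or 8 counts, above the other WT SH libraries, which had 4 to 6 counts. Serping1 in WT SH replicate 3 was 7.52 CPM, below the other WT SH libraries at 9.78 to 9.90 CPM. Serping1 in WT MI replicate 2 was 10.4 CPM, above the other WT MI libraries at 7.90 to 8.18 CPM, and this library was the highest of its group for all 9 genes.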

How the results depend on the processing

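No result was reversed while being called. The rise of C1ra, C3, C4b and Cfb in WT hearts and of 8 genes in KO hearts kept its call in every alternative in which the gene was tested, but requiring at least 10 counts in every library removed C4b and Cfb, leaving 2 genes called in WT MI against WT SH and 6 in KO MI against KO SH. With 1 library left out, the number called ranged from 0 to 1 in KO MI against WT MI and from 1 to 4 in KO SH against WT SH. With Xist as a covariate C1s1 in KO SH against WT SH turned from −0.10 to 0.069 on the log2 scale. Leaving out 1 library turned the sign of further uncalled log2 values, which ranged in KO MI against WT MI from −0.26 to 0.21 for C1qa, −0.027 to 0.42 for C1qc, −0.13 to 0.49 for C1s1 and −0.38 to 1.17 for C3. They ranged from −0.081 to 0.33 for C4b in KO SH against WT SH, −0.051 to 0.13 for C1qa in WT MI against WT SH, and in the interaction −0.47 to 0.080 for C1ra and −0.034 to 0.58 for C1s1. The cause was not tested. Over the single-gene values under the alternatives other than the thresholds, 1069 kept direction and call, 14 lost and 9 gained a call, and 14 turned sign. At an adjusted p under 0.05 the C3 call in KO SH against WT SH (adjusted p = 0.0931 by edgeR) was lost.

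Same-numbered libraries did not deviate together (correlations −0.04 to 0.11), so the numbers were not taken to pair them. With the replicate block the counts of the 9 genes called stayed at 0, 3, 4, 8 and 0 for KO MI against WT MI, KO SH against WT SH, WT MI against WT SH, KO MI against KO SH and the interaction, while calls over all genes in the interaction went from 5 to 689. DESeq2 called 211 genes in the interaction. With only the infarcted groups in the fit, calls over all genes in KO MI against WT MI went from 348 to 192. With no minimum fold change, calls over all genes were 619 in KO MI against WT MI, 2483 in KO SH against WT SH (from 1010), 1069 in WT MI against WT SH (from 559) and 3533 in KO MI against KO SH (from 1494), and in the interaction they were 39 with no filter, 19 with the Xist covariate, 8 with the robust fit and 3 at an adjusted p under 0.05. Leaving out 1 library gave 227 to 575 calls over all genes in KO MI against WT MI, 660 to 1217 in KO SH against WT SH, 283 to 690 in WT MI against WT SH, 887 to 2180 in KO MI against KO SH and 2 to 840 in the interaction. The sham levels of C4b and Cfb rest on few counts, which limits the precision of their folds.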
